A study of Rattus norvegicus with 18 samples.

Results

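Cytosolic heat shock genes encode the chaperones that fold and refold proteins in the cytosol, together with the transcription factor that switches them on. The 10 genes followed here, of 38445 genes in the count files, were chosen by name: the regulator Hsf1, the HSP70 proteins Hspa1b, Hspa8, and Hspa4, the HSP110 protein Hsph1, the HSP90 proteins Hsp90aa1 and Hsp90ab1, the HSP40 protein Dnajb1, the small heat shock protein Hspb1, and the co-chaperone Bag3. Their levels were read in the dorsal hippocampus of 18 male Sprague Dawley rats, 75 to 85 days old when purchased, with 1 library per rat. The 6 control rats were pair fed the Lieber-DeCarli control liquid diet. The 6 ethanol rats were maintained for 16 days on the same diet with 9% ethanol (v/v) and were not withdrawn, and the 6 withdrawal rats were maintained for 15 days on 9% ethanol and then returned to control diet for 24 h. Only males were studied, and all 3 groups lived on liquid diet.

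When proteins misfold, HSF1 forms trimers that bind heat shock elements, inverted repeats of a short GAA unit, in front of chaperone genes. HSP70 proteins hold and release unfolded chains with the help of J-domain proteins such as Dnajb1, which deliver the chains, and nucleotide exchange factors such as Hsph1, Hspa4, and Bag3, which reset the cycle, while HSP90 proteins finish the folding of many kinases and receptors. In brain tissue the constitutive members Hspa8 and Hsp90ab1 are abundant in neurons, and small heat shock proteins such as Hspb1 are typical of astrocytes and of cells of the vessel wall.

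The depth was 30873228 to 42679748 counts on genes per rat (median 36302755). Levels are given as CPM, the counts relative to library size after scaling by the trimmed mean of M-values, and those compared between genes are also divided by the summed exon length (RPKM). Fold changes come from limma-voom, fitted to the 17853 genes above 0.5 CPM in at least 1 rat with 3 surrogate variables (unnamed sources of variation estimated from the data), and q is the p adjusted over all of these genes. The summed markers of neurons, of dentate granule and CA pyramidal neurons, of astrocytes, and of oligodendrocytes were above 0 in every rat. The summed blood markers were at a median of 162 CPM in control, 50.7 CPM in ethanol, and 47.5 CPM in withdrawal rats. Withdrawal rat 5 stood apart, with the lowest summed level of the granule neuron markers (77.7 CPM, against 119 to 203 CPM in the other rats) and the highest of the mural and leptomeningeal markers (456 CPM). In bulk tissue, fewer cells of a type and less RNA per cell cannot be told apart. The first of the 2 index tags in each library's deposited name took 3 sequences, here called index sets 1 to 3. The 6 control rats carried set 1, the 6 ethanol rats and 2 withdrawal rats (1 and 2) set 2, and the other 4 withdrawal rats set 3. The labels name no such sets and do not say whether they mark a batch. Control and treated libraries therefore never shared a set, so treatment and index set cannot be told apart in comparisons with control.

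The promoters of 7 of the 10 genes were found in the RefSeq table of assembly GRCr8 (250 bases before to 50 bases after the annotated start of transcription). Heat shock elements were searched as GAANNTTC or TTCNNGAA, 2 inverted units that each read the same on both strands, and as a longer form of 3 units, in which 2 more bases and a further inverted unit follow (GAA after GAANNTTC, or TTC after TTCNNGAA). Every longer match also holds shorter ones. The shorter form occurred in 5 of the 7 promoters (Hspa8, Hsph1, Dnajb1, Hspb1, and Bag3), against 15.9% of the 33469 promoters of the same length in the table, and the longer form in 2 (Hspa8 and Hsph1), against 0.798%. Hspa4 and Hsp90ab1 had no match in this window. The 4 stretches below are shown because they carry the matches of Hspb1, which was high in withdrawal rats 1 and 6, and of Bag3, which was high in withdrawal rat 1, and the longer matches of Hspa8 and Hsph1, with the matching letters in capitals, written 5′ to 3′ on the coding strand.
Hspb1 (chr12:26432383-26432450, minus strand): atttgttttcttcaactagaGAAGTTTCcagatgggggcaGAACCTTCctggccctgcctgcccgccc
Bag3 (chr1:192533308-192533355, plus strand): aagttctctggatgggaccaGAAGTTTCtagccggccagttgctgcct
Hspa8 (chr8:50080281-50080491, plus strand): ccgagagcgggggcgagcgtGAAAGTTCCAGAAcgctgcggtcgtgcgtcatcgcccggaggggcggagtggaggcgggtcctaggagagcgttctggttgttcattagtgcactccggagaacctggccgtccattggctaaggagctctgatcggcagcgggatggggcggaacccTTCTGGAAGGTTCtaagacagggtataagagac
Hsph1 (chr12:10427243-10427364, plus strand): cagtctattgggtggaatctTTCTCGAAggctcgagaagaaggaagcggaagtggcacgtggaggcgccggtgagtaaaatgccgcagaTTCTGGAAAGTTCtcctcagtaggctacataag
The matches began 129 and 109 bases before the start in Hspb1 and 132 bases before it in Bag3. In Hspa8 they began 213 and 208 bases before the start, and again 55 and 50 bases before it, so that each pair of overlapping matches made up 1 of the 2 longer forms. Hsph1 had a short match 105 bases before the start and the longer form from 36 bases before it. A match of letters is a description of the sequence and not a measured binding site.

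Hspa1b, the stress-inducible HSP70 gene itself, was listed at 0 counts in all 18 rats (identifier 108348108, chromosome 20, 2699707 to 2701856, minus strand, in Rnor_6.0, the genome build of the deposited files). A count of 0 allows up to 3 counts, or 0.0972 CPM in the shallowest library, counting error only. Read pairs that aligned to several places were not counted, so the value speaks only of pairs placed uniquely on this copy. Its paralog Hspa1a, known to be close to it in sequence (chromosome 20, 4877638 to 4880112, minus strand) held 22 to 114 counts per rat, or 0.61 to 3.23 CPM. Pairs that match both copies are in neither count, and the level of inducible HSP70 RNA is therefore uncertain in these files. The other 9 genes all passed the filter on low values and were tested.

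Over the 9 tested genes, the level per exon length in control rats ranged from 4.89 to 686 RPKM. Hsp90ab1 was the most abundant (686 ± 41.0 RPKM, SD, n = 6), followed by Hspa8 (516 ± 46.4 RPKM), Hsph1 (109 ± 9.32 RPKM), Hspa4 (83.9 ± 3.59 RPKM), Dnajb1 (22.5 ± 1.52 RPKM), and Hsf1 (14.9 ± 0.61 RPKM). Between each of these genes and the next the ranges of the 6 control rats did not overlap. At the lower end, Hspb1 (6.83 ± 1.42 RPKM) and Bag3 (5.92 ± 0.516 RPKM) overlapped each other, and Bag3 overlapped Hsp90aa1 (4.89 ± 0.869 RPKM). The level of Hsp90aa1 is uncertain, since pairs that aligned to several places were not counted. In withdrawal rats the mean of Hspb1 (15.4 ± 9.44 RPKM) was level with that of Hsf1 (15.4 ± 0.967 RPKM), although its spread was far wider. Together the 10 genes took up 0.335% to 0.387% of all counts in a rat.

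**Figure D1:**
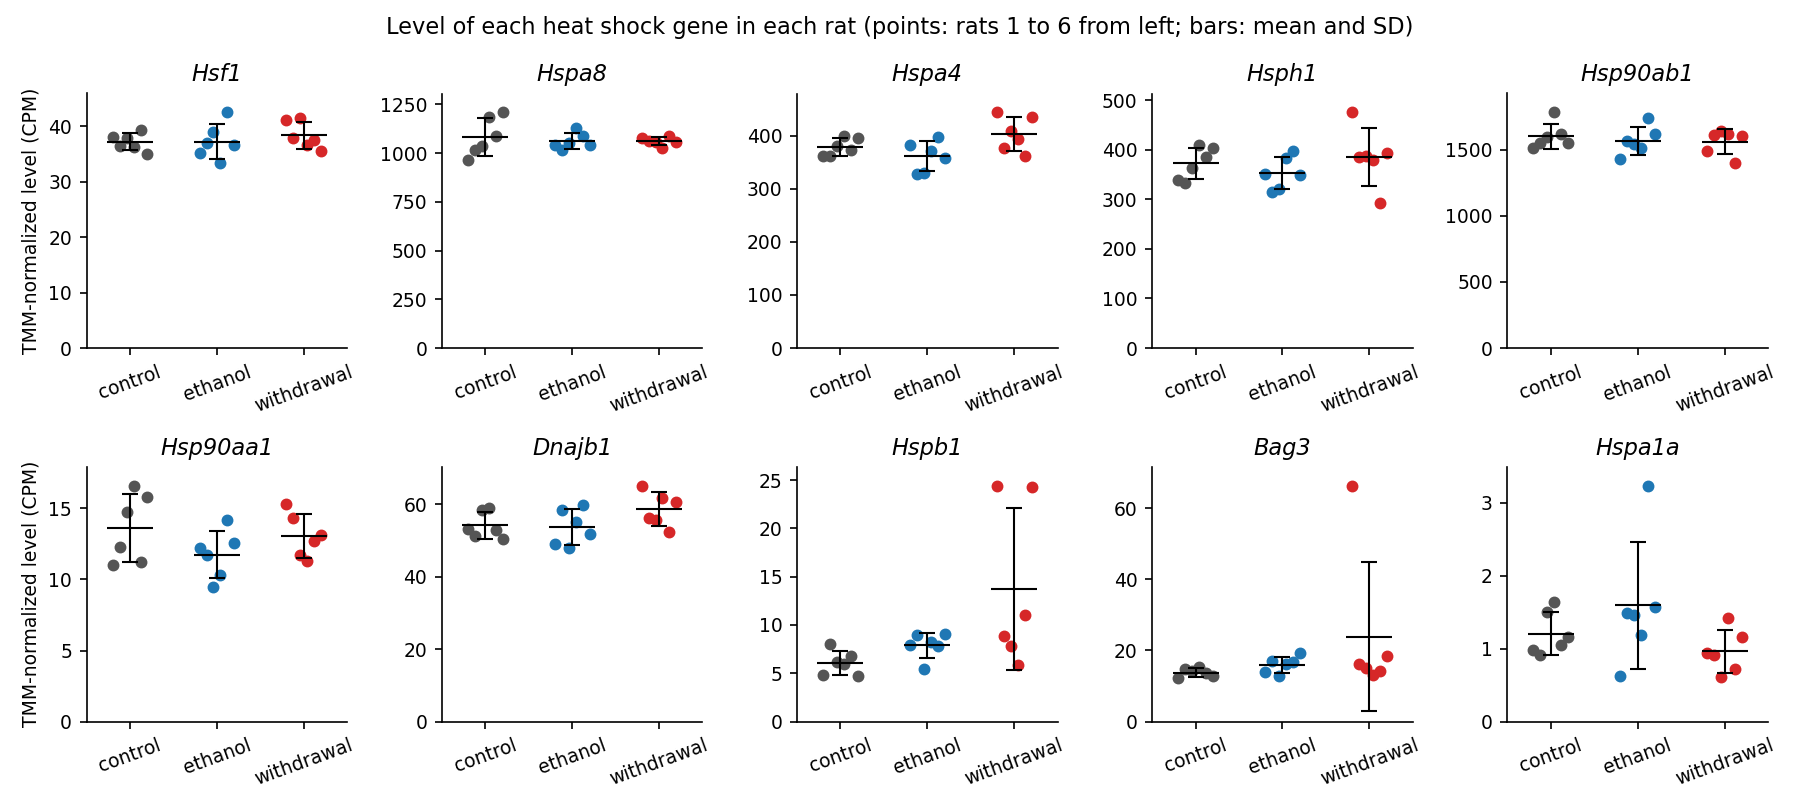
Level of each tested heat shock gene and of Hspa1a (CPM, vertical axis from 0) in the control, ethanol, and withdrawal rats, with 1 point per rat in the order of rats 1 to 6 and black bars for the mean and SD of 6 rats. Hspb1 reached 24.4 and 24.3 CPM in withdrawal rats 1 and 6, and Bag3 reached 66.4 CPM in withdrawal rat 1, while the groups of the other heat shock genes lay close together.

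To ask whether chronic ethanol or its withdrawal changed heat shock gene expression, the 3 groups were compared in pairs. Between withdrawal and control rats, 1 of the 9 tested genes was differentially expressed (DE, q < 0.1), where 5.41% of all tested genes were DE. This gene, Hspb1, was increased, as 2.87% of all tested genes were, and 0 of the 9 were decreased, as 2.54% were. At an unadjusted limma p under 0.05 were 3 of the 9 (Hspb1, Bag3, and Hspa4), against 19.8% of all tested genes. Between ethanol and control rats, 0 of the 9 were DE with limma-voom, against 0.493% of all tested genes, and 0 of the 9 had an unadjusted p under 0.05, against 12.5%. The edgeR quasi-likelihood test and DESeq2, which called 96 and 473 genes in this comparison, also called 0 of the 9. Between withdrawal and ethanol rats, 1 of the 9 was DE, against 2.72% of all tested genes. This gene, Hspa4, was increased, as 1.18% of all tested genes were, and 2 of the 9 (Hspa4 and Hspb1) had an unadjusted limma p under 0.05, against 16.5%. The median log2 fold change of the 9 genes was 0.09, 0.00, and 0.18 in these 3 comparisons, and that of all tested genes was 0.00 in each. The comparisons share groups of rats with each other, so their values are not independent. In no comparison did the rats of the groups separate fully for any of the 9 genes, as happened for 1.06%, 1.32%, and 1.22% of all tested genes. Of 27 exact permutation tests (9 genes in 3 comparisons, two-sided, on mean log2 CPM, smallest possible p 0.00216 with 6 rats against 6), 3 gave an unadjusted p under 0.05, 1 of the 9 genes in each comparison, where 12.8% (withdrawal vs. control), 13.5% (ethanol vs. control), and 14.3% (withdrawal vs. ethanol) of all tested genes did.

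**Figure D2:**
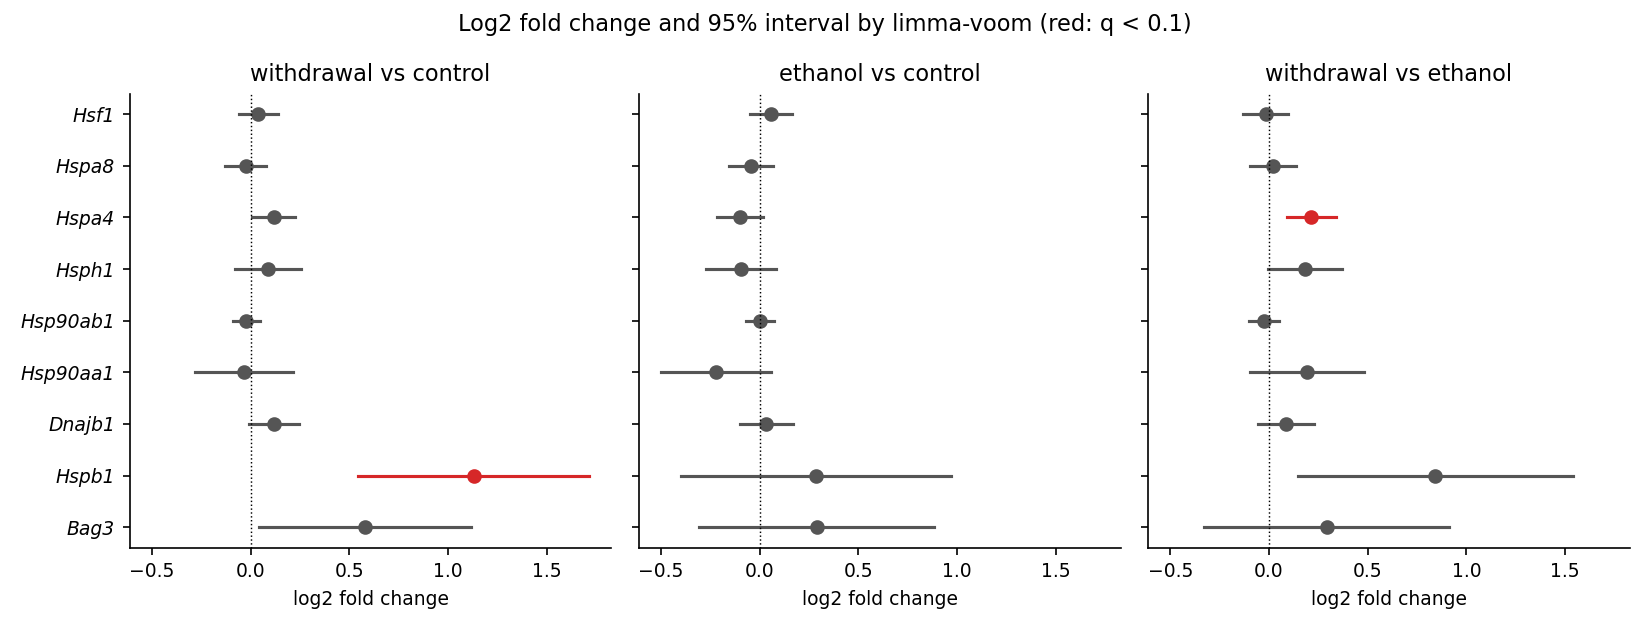
Log2 fold change of each tested heat shock gene (horizontal axis, point) with its 95% confidence interval (line) in the 3 comparisons, from limma-voom with 3 surrogate variables, with genes at q < 0.1 in red. Hspb1 in withdrawal vs. control (1.13) and Hspa4 in withdrawal vs. ethanol (0.22) are the red points, and the interval of Hspb1 is several times wider than that of Hspa4.

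Hspb1, which encodes the small heat shock protein HSP27 that keeps unfolding proteins from aggregating and protects actin filaments, had the largest change of the 9 genes (chromosome 12, 23839390 to 23841051, minus strand, Rnor_6.0). In control rats its level was 4.69 CPM in the lowest, 6.08 CPM at the median, and 8.07 CPM in the highest rat. In ethanol rats these values were 5.48, 8.08, and 9.04 CPM. The withdrawal rats 1 to 6 had 24.4, 8.86, 7.84, 5.89, 11.0, and 24.3 CPM. Withdrawal rats 1 and 6 thus lay about level with each other and far above the rest, and withdrawal rat 1 was at 4.02 times the control mean. In all, 4 of 6 withdrawal rats and 3 of 6 ethanol rats were above every control rat, and the lowest withdrawal rat was below the control mean. The means were 6.08 ± 1.27 CPM in control, 7.91 ± 1.30 CPM in ethanol, and 13.7 ± 8.40 CPM in withdrawal rats (SD, n = 6).

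Hspb1 was increased in withdrawal over control rats by a log2 fold change of 1.13 (SE 0.28, q = 0.0459 by limma-voom), or 2.19-fold with a 95% interval of 1.46 to 3.29, and the exact permutation p was 0.0216. The call depended on which rats were included. Without withdrawal rat 1 alone it held (0.95, q = 0.0763 by limma-voom), and the exact permutation p was 0.0303 without rat 1 and 0.0303 without rat 6. Without withdrawal rats 1 and 6 (left out after their values were seen) the mean of the other 4 was 8.40 ± 2.12 CPM, the log2 fold change was 0.48 (q = 0.56 by limma-voom), and the exact permutation p was 0.0762. Leaving out withdrawal rat 6 alone gave 0.84 (q = 0.195 by limma-voom), leaving out control rat 6 alone gave 0.99 (q = 0.109 by limma-voom), and a fit with no surrogate variables gave 0.96 (q = 0.265 by limma-voom). Calls over all genes also fell in these fits, from 965 to 1 (without withdrawal rats 1 and 6), 23 (without withdrawal rat 6), 444 (without control rat 6), and 41 (no surrogate variables). Without withdrawal rat 5, whose cell markers stood apart, the value was 1.04 (q = 0.064 by limma-voom). Ethanol rats did not pass the threshold against control rats (0.29 on the log2 scale, limma-voom SE 0.32, q = 0.768), although the exact permutation p was 0.0433. Withdrawal and ethanol rats differed by 0.84 (SE 0.33, q = 0.211 by limma-voom; exact permutation p = 0.18), which was 0.43 without withdrawal rat 6 (limma-voom q = 0.662) and 0.10 without withdrawal rats 1 and 6 (limma-voom q = 0.946). Within index set 2 the 2 withdrawal rats exceeded the 6 ethanol rats by 0.91 in mean log2 CPM, and the 4 withdrawal rats of set 3 exceeded the same ethanol rats by 0.43. Each value was carried by 1 library: without withdrawal rat 1 the difference in set 2 was 0.18, and without withdrawal rat 6 that in set 3 was 0.03.

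Cell markers were read in the libraries with the most Hspb1. The 4 endothelial markers summed to 250 CPM in withdrawal rat 1 and 221 CPM in withdrawal rat 6, ranks 1 and 3 of 18, against 172 to 205 CPM in control rats and 183 to 217 CPM in ethanol rats. Rank 2 was withdrawal rat 5 (234 CPM), with 11.0 CPM of Hspb1. The 4 astrocyte markers summed to 3016 and 3065 CPM in withdrawal rats 1 and 6, against 2330 to 2618 CPM in control, 1924 to 2702 CPM in ethanol, and 1896 to 3328 CPM in all withdrawal rats. Of these markers, 2 of 4 endothelial markers were increased in withdrawal over control rats and 0 decreased, and of the astrocyte markers 1 was increased and 1 decreased (q < 0.1 by limma-voom), where 2.87% of all tested genes were increased and 2.54% decreased. Of the mural and leptomeningeal markers 1 of 4 was increased, and of the granule neuron markers 1 of 3 was decreased. Withdrawal rat 1 also ranked 17 of 18 for the summed granule neuron and oligodendrocyte markers, 16 for the CA pyramidal markers, and 2 for the interneuron markers. The 5 choroid plexus markers summed to 5249 CPM in withdrawal rat 6, the highest of 18, but to 1167 CPM in withdrawal rat 1, rank 15, against 1065 to 2225 CPM in control rats and 1404 to 5248 CPM in ethanol rats, none of which was above 9.04 CPM of Hspb1. The 4 mural and leptomeningeal markers summed to 154 CPM in withdrawal rat 1 and 140 CPM in withdrawal rat 6, ranks 5 and 12, and were highest in withdrawal rat 5 (456 CPM). None of these markers was at 0 in all rats, and their part in the Hspb1 result was not tested.

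Bag3, the exchange factor that hands HSP70 clients to small heat shock proteins and to autophagy, followed with the next largest change (chromosome 1, 199941258 to 199965191, plus strand, Rnor_6.0). Control rats ranged from 12.2 to 15.3 CPM (median 13.9) and ethanol rats from 12.8 to 19.2 CPM (median 16.5). Withdrawal rat 1 had 66.4 CPM, 4.81 times the control mean, and the other 5 withdrawal rats had 13.1 to 18.5 CPM. A single library thus set the group apart with 2039 counts, against 399 to 763 counts in the other 17 rats. Between withdrawal and control the log2 fold change was 0.58 (SE 0.26, q = 0.219 by limma-voom; exact permutation p = 0.0649), and without withdrawal rat 1 it was 0.21 (q = 0.239 by limma-voom), with a mean of 15.4 ± 2.02 CPM in the other 5 rats. The exact permutation p was 0.128 without withdrawal rat 1 and 0.0325 without withdrawal rat 5. In ethanol rats the log2 difference from control was 0.29 (limma-voom SE 0.28, q = 0.721), with 4 of 6 ethanol rats above every control rat. Between withdrawal and ethanol it was 0.29 (q = 0.659 by limma-voom), and it turned to −0.01 without withdrawal rat 1. Withdrawal rat 1 belonged to index set 2, in which withdrawal exceeded ethanol rats by 1.04 in mean log2 CPM, whereas the 4 withdrawal rats of set 3 differed from them by −0.07. Without withdrawal rat 1, the difference in set 2 was 0.02.

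**Figure D3:**
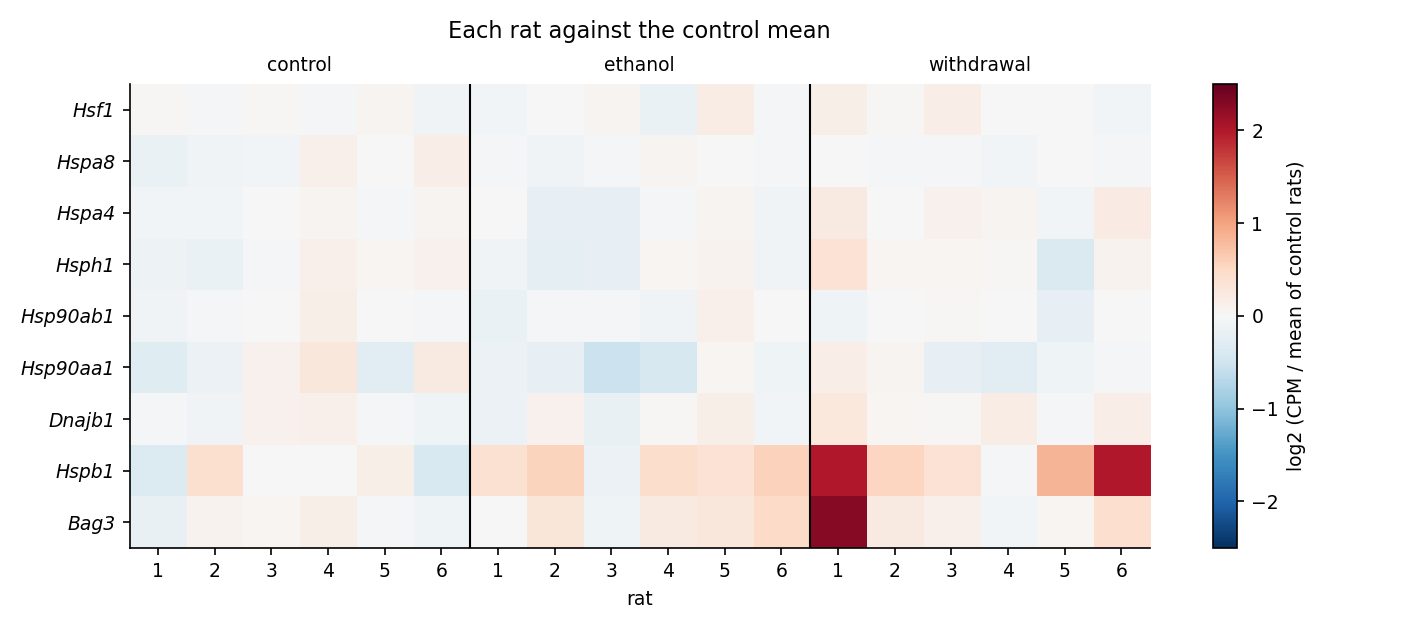
Level of the 9 tested heat shock genes (rows) in each rat (columns, by group) as the log2 ratio of its CPM to the mean of the 6 control rats, from blue (lower) to red (higher). Hspb1 is darkest in withdrawal rats 1 and 6 and Bag3 in withdrawal rat 1, and the rows of the other genes stay pale in every rat.

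Hspa4 and Hsph1 encode large HSP70 relatives that act as exchange factors for HSP70 and as holders of unfolded chains. Hspa4 (chromosome 10, 38601624 to 38642397, minus strand, Rnor_6.0) ranged from 362 to 399 CPM in control rats (median 378), from 329 to 399 CPM in ethanol rats (median 365), and from 362 to 444 CPM in withdrawal rats (median 402). All 6 withdrawal rats lay above the mean of the ethanol rats and 3 lay above every ethanol rat. From ethanol (362 ± 28.2 CPM, SD, n = 6) to withdrawal rats (404 ± 32.4 CPM) Hspa4 increased by 0.22 on the log2 scale (SE 0.059, q = 0.0876 by limma-voom), or 1.16-fold with a 95% interval of 1.07 to 1.26. The exact permutation p was 0.0433 with all rats, 0.0866 without withdrawal rat 1, 0.0844 without withdrawal rat 6, 0.19 without both, and 0.0195 without withdrawal rat 5. By limma-voom the difference was 0.13 without withdrawal rats 1 and 6 (q = 0.567). In this comparison 1 of 4 astrocyte and 1 of 4 interneuron markers were also increased (q < 0.1 by limma-voom, against 1.18% of all tested genes), and their part in the Hspa4 result was not tested. The small difference in Hspa4 lay near the threshold: it was lost with no surrogate variables (0.16, q = 0.169 by limma-voom) or 2 (0.22, q = 0.107), with the replicate number as a block (0.19, q = 0.182 by limma-voom), in a fit of only the ethanol and withdrawal rats (0.21, q = 0.219), and without any 1 of the 6 control rats, of ethanol rats 2, 3, and 6, or of withdrawal rats 3 and 6, with values of 0.17 to 0.22 (q = 0.101 to 0.35). Over all genes, 485 were called with all rats, 560 with no surrogate variables, 261 with 2, 61 with the block, and 0 in the fit of only these groups and without ethanol rat 2, ethanol rat 3, or withdrawal rat 6. Against control rats, withdrawal rats differed by 0.12 (limma-voom q = 0.224) and ethanol rats by −0.10 (limma-voom q = 0.487). Relative to the ethanol rats, Hspa4 was higher by 0.18 in mean log2 CPM in the 2 withdrawal rats of the same index set and by 0.15 in the 4 of set 3. These differences were 0.06 without withdrawal rat 1 and 0.11 without withdrawal rat 6.

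Hsph1 (chromosome 12, 6322685 to 6341898, minus strand, Rnor_6.0) had means of 373 ± 31.9 CPM in control, 353 ± 32.6 CPM in ethanol, and 386 ± 58.3 CPM in withdrawal rats (SD, n = 6). Withdrawal rats 1 and 5 had the highest (476 CPM) and the lowest (292 CPM) level of all 18 rats, and the other 4 withdrawal rats lay between 381 and 394 CPM. The log2 fold change from ethanol to withdrawal was 0.18 (95% interval −0.01 to 0.37, q = 0.32 by limma-voom). Relative to control, withdrawal rats differed by 0.09 (limma-voom q = 0.571) and ethanol rats by −0.09 (limma-voom q = 0.691). Without withdrawal rat 5 the exact permutation p between withdrawal and ethanol was 0.039 for Hsph1, against 0.301 with all rats, 0.558 without withdrawal rat 1, 0.377 without withdrawal rat 6, and 0.781 without both.

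The HSP90 genes differed in counted level, with a limit for Hsp90aa1 given below, and neither was DE in any comparison. Hsp90ab1, the constitutive form (chromosome 9, 17817791 to 17823163, plus strand, Rnor_6.0), had 1604 ± 95.8 CPM in control, 1570 ± 105 CPM in ethanol, and 1562 ± 95.6 CPM in withdrawal rats (SD, n = 6), and its log2 fold changes lay between −0.02 and 0.00, with 95% intervals of −0.09 to 0.05 for withdrawal and −0.07 to 0.07 for ethanol against control. Hsp90aa1, the stress-inducible form (chromosome 6, 135107262 to 135112793, minus strand, Rnor_6.0), had 13.6 ± 2.42 CPM in control, 11.7 ± 1.68 CPM in ethanol, and 13.1 ± 1.54 CPM in withdrawal rats. Per exon length, Hsp90ab1 was 140-fold above Hsp90aa1 in control rats. Hsp90aa1 fold changes had the wider intervals, from −0.50 to 0.05 between ethanol and control (estimate −0.22, limma-voom q = 0.512) and from −0.10 to 0.48 between withdrawal and ethanol (0.19, q = 0.514 by limma-voom).

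Copies of these genes without a known protein, listed in the reference as pseudogenes, also drew counts. Of 16 such copies of Hsp90aa1 in the reference, 15 were in the files and 11 had counts, which made up 17.6% to 32.5% of the counts of Hsp90aa1 and its copies together. The same share was 2.00% to 3.15% for Hspa8 (26 of 31 copies with counts) and 0.0405% to 0.0935% for Hsp90ab1. The copies of Hsp90aa1 summed to 3.71 ± 0.350 CPM in control, 4.21 ± 0.493 CPM in ethanol, and 4.42 ± 0.325 CPM in withdrawal rats (SD). Since pairs that align to several places were left out, the level of Hsp90aa1 and its distance from Hsp90ab1 are uncertain. The same limit holds for its differences between groups.

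Hspa8, the constitutive HSP70 (chromosome 8, 44989401 to 44993261, plus strand, Rnor_6.0), had 1083 ± 97.4 CPM in control, 1062 ± 40.3 CPM in ethanol, and 1061 ± 21.3 CPM in withdrawal rats (SD, n = 6). The spread, as a share of the mean, was 9.00% in control and 2.00% in withdrawal rats, and the 6 withdrawal rats (1026 to 1087 CPM) all lay inside the control range (964 to 1210 CPM). Its log2 fold changes were −0.02 (withdrawal vs. control), −0.05 (ethanol vs. control), and 0.02 (withdrawal vs. ethanol), and all 3 intervals stayed between −0.16 and 0.14. Dnajb1, the J-domain partner induced with HSP70 (chromosome 19, 24747178 to 24750919, plus strand, Rnor_6.0), had 54.2 ± 3.66 CPM in control, 53.7 ± 4.93 CPM in ethanol, and 58.6 ± 4.68 CPM in withdrawal rats. Of 6 withdrawal rats, 3 were above every control rat for Dnajb1, and the difference did not pass the threshold (log2 fold change 0.12, 95% interval −0.01 to 0.24, q = 0.28 by limma-voom). Without withdrawal rat 5 its exact permutation p between withdrawal and control was 0.0368, against 0.108 with all rats, 0.203 without withdrawal rat 1, 0.173 without withdrawal rat 6, and 0.376 without both.

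Hsf1, the factor that drives the response (chromosome 7, 117538523 to 117565478, plus strand, Rnor_6.0), had 37.2 ± 1.53 CPM in control, 37.3 ± 3.18 CPM in ethanol, and 38.4 ± 2.42 CPM in withdrawal rats (SD, n = 6). Its log2 fold changes were 0.04, 0.06, and −0.02, with intervals between −0.13 and 0.16 in the 3 comparisons (q = 0.687, 0.692, and 0.91 by limma-voom). HSF1 is controlled largely by its trimers and their modification, which RNA counts do not measure. Over the 7 tested genes other than Hspb1 and Bag3, the highest of the 18 rats exceeded the lowest by 1.25- to 1.76-fold, and the log2 fold changes of all comparisons lay between −0.22 and 0.22.

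Within groups, several of the genes were high in the same rat. Of the 9 genes, 6 were highest among control rats in control rat 4, 6 were highest among ethanol rats in ethanol rat 5, and 6 were highest among withdrawal rats in withdrawal rat 1. Of all tested genes, 17.4%, 24.6%, and 18.7% were highest in these rats. Withdrawal rats 4 and 5 were each the lowest of their group for 4 of the 9 genes, and for 16.1% and 23.5% of all tested genes. Control rat 1 and ethanol rat 3 were also each lowest in their groups for 4 of the 9, and for 14.1% and 12.4% of all tested genes. After the group means were subtracted, 32 of the 36 pairs of genes had a Pearson correlation of log2 CPM above 0 over the 18 rats, and 27 did without withdrawal rat 1, where 49.8% of all pairs of tested genes were above 0 over the 18 rats. Hsp90ab1 with Bag3 moved from −0.03 to 0.49 when withdrawal rat 1 was left out. The points share library depth and tissue composition, so the values are a description.

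**Figure D4:**
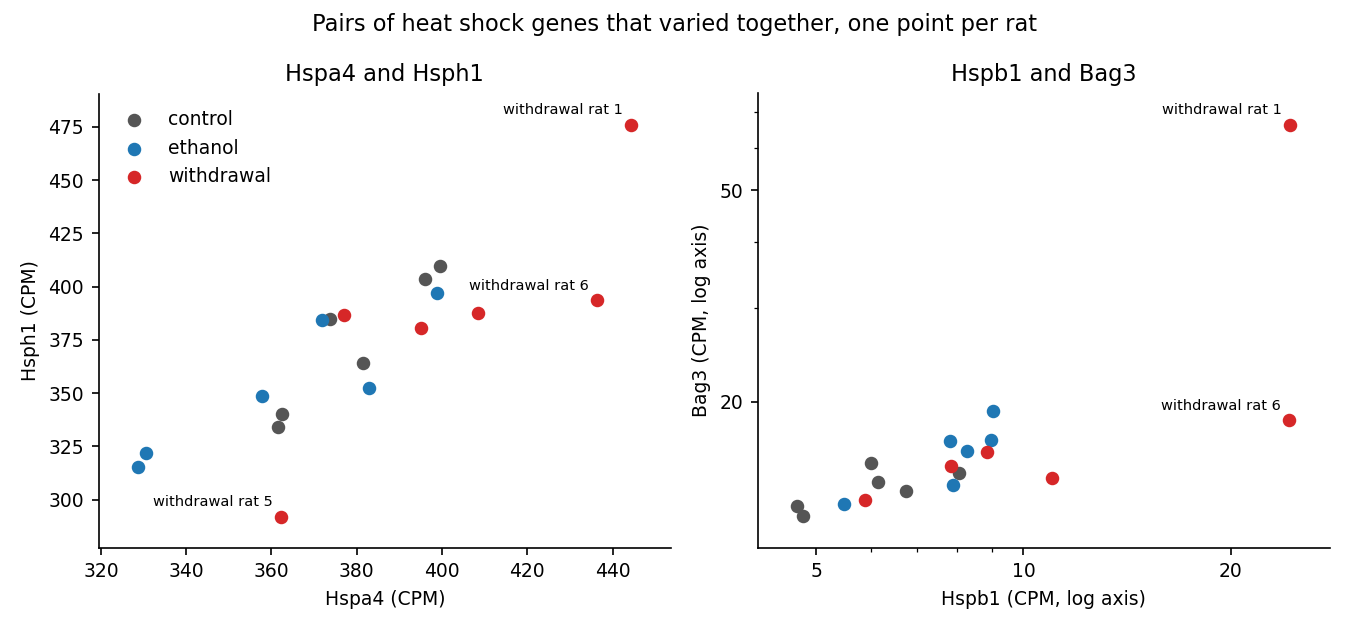
Level of Hsph1 against Hspa4 (left, CPM) and of Bag3 against Hspb1 (right, CPM on log axes), with 1 point per rat coloured by group. Hspa4 and Hsph1 lie along a line with withdrawal rat 1 at its upper end and withdrawal rat 5 below it, and Hspb1 and Bag3 are both high only in withdrawal rat 1, since withdrawal rat 6 has high Hspb1 and 18.5 CPM of Bag3.

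The strongest pair was Hspa4 with Hsph1 (r = 0.85 over 18 rats, 0.82 without withdrawal rat 1), followed by Hspb1 with Bag3 (r = 0.71, and 0.73 without withdrawal rat 1). Withdrawal rat 6, the highest of the remaining withdrawal rats for Hspb1 and Bag3, is still in the latter value. Correlations without it are not given. Hsph1 with Bag3 fell from 0.58 to 0.29 when withdrawal rat 1 was left out. The correlations of Hsf1 with the other 8 genes ran from −0.21 (Hspa8) to 0.31 (Hsp90ab1), and without withdrawal rat 1 from −0.27 (Hspb1) to 0.40 (Hsp90ab1). Outside the group, the genes most like Hspb1 were Hmox1 (r = 0.88), which encodes the heme-degrading enzyme induced by oxidative stress, Prodh (0.87), which encodes the mitochondrial enzyme that begins proline breakdown, and Cd44 (0.87), which encodes a receptor for hyaluronan. Without withdrawal rat 1, but with withdrawal rat 6 still included, these values were 0.83, 0.81, and 0.81. Hmox1 was at 12.2 and 12.3 CPM in withdrawal rats 1 and 6, against a control mean of 4.89 CPM, and Cd44 was at 40.1 CPM in withdrawal rat 1, against 17.0 CPM. None of these 3 genes passed the threshold between withdrawal and control (q = 0.142 for Hmox1, 0.133 for Prodh, and 0.134 for Cd44 by limma-voom). The genes most like Hspa8 were Lmbr1 (r = 0.81), Cox7b (0.79), and Ostc (0.77), and these values were the same without withdrawal rat 1. The genes most like Bag3, looked up after its values were seen, were Rbpj (0.95), Gadd45b (0.94), and Tsr1 (0.93), and their correlations fell to 0.36, 0.57, and 0.56 without withdrawal rat 1. Of these, Rbpj passed the threshold between withdrawal and control (log2 fold change 0.29, limma-voom q = 0.0963), and Gadd45b and Tsr1 did not (limma-voom q = 0.258 and 0.725).

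To place the group among other chaperones, 56 genes in 8 lists were read from the same fit, of which 54 were tested. Between withdrawal and control 2 of the 54 were DE and both were increased, against 5.41% of all tested genes that were DE, and 12 had an unadjusted p under 0.05, against 19.8%. Between ethanol and control 0 were DE with limma-voom, against 0.493%, and 13 had an unadjusted p under 0.05, against 12.5%. Between withdrawal and ethanol 3 were DE (2 increased and 1 decreased), against 2.72%, and 17 had an unadjusted p under 0.05, against 16.5%. The median log2 fold change of the 54 genes was 0.05, −0.01, and 0.06 in these comparisons, against 0.00 for all tested genes in each.

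**Figure D5:**
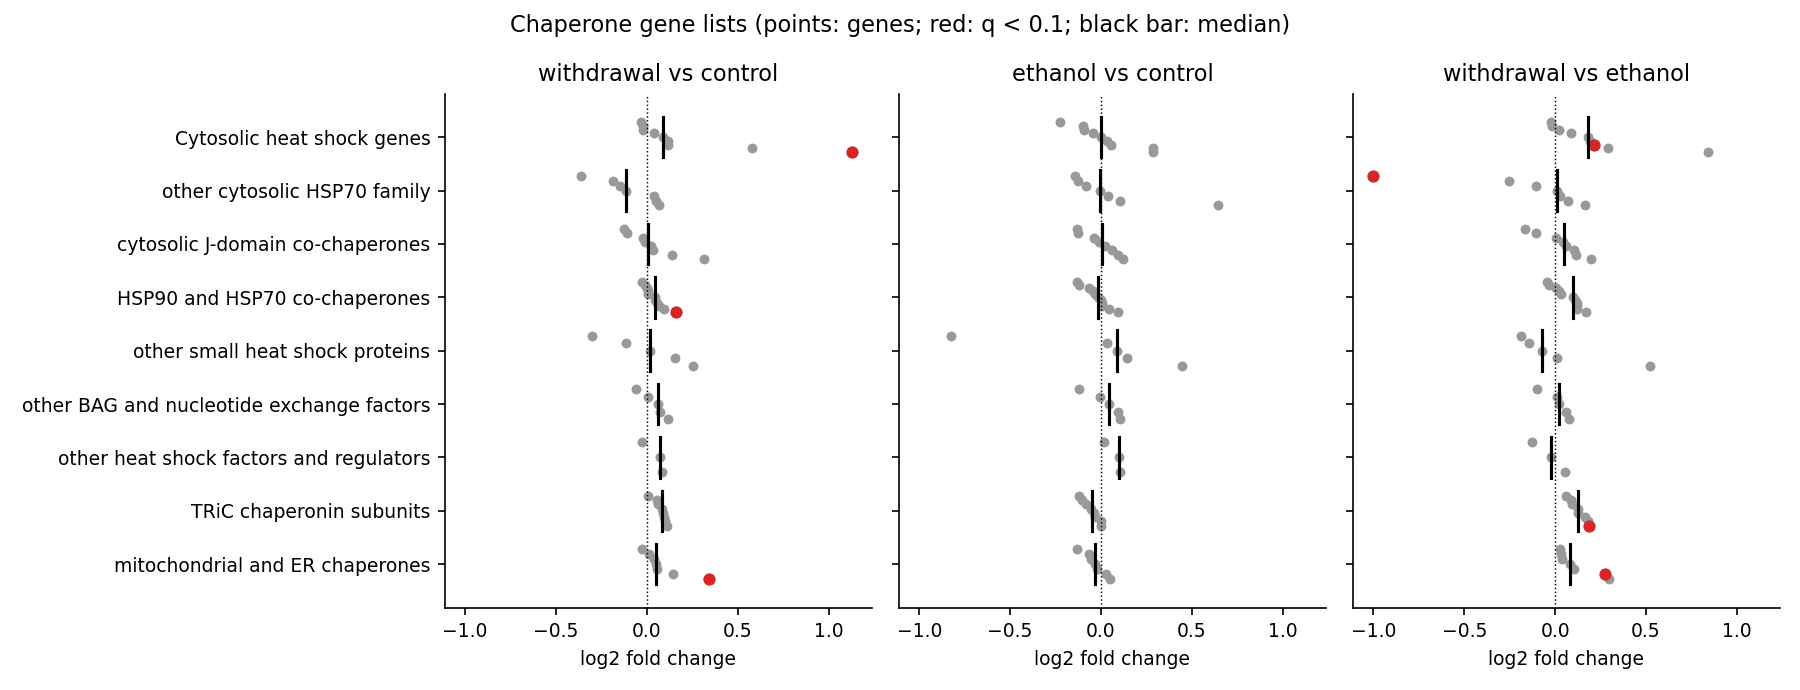
Log2 fold change (horizontal axis) of the 9 tested heat shock genes and of 8 other chaperone lists (rows) in the 3 comparisons, with 1 point per gene, genes at q < 0.1 in red, and the median of each list as a black bar. Most points lie within 0.2 of 0, and the red points are Hspb1, Stub1, and Serpinh1 (withdrawal vs. control) and Hspa4, Hspa1a, Cct6a, and Hspa9 (withdrawal vs. ethanol).

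Among partners of HSP90 and HSP70, 1 of 11 genes was increased in withdrawal over control rats, where 2.87% of all tested genes were. This was Stub1, the ubiquitin ligase that marks chaperone clients for breakdown, with a mean of 95.8 ± 3.26 CPM in control against 109 ± 6.49 CPM in withdrawal rats, a log2 difference of 0.16 (limma-voom SE 0.046, q = 0.0738). Of the 7 mitochondrial and endoplasmic reticulum chaperones, Serpinh1, a collagen chaperone, was increased in withdrawal rats, with 49.99 ± 6.48 CPM in control against 62.4 ± 8.15 CPM, a log2 difference of 0.34 (limma-voom SE 0.095, q = 0.0695). In this comparison calls over all genes fell from 965 to 23 without withdrawal rat 6. Whether Stub1 and Serpinh1 were among those is not given. Hspa9, the mitochondrial HSP70, was increased in withdrawal over ethanol rats, from 156 ± 7.25 to 186 ± 14.1 CPM (0.28, SE 0.054, q = 0.0342 by limma-voom). Every withdrawal rat (173 to 208 CPM) was above every ethanol rat (147 to 166 CPM), and 1.22% of all tested genes separated fully in this comparison. No gene was called without ethanol rat 2, ethanol rat 3, or withdrawal rat 6, or in a fit of only these 2 groups. The call of Hspa9 was thus lost in each of these fits.

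All 8 subunits of TRiC, the chaperonin that folds actin and tubulin, had log2 fold changes above 0 both in withdrawal vs. control (0.01 to 0.11) and in withdrawal vs. ethanol rats (0.06 to 0.19), comparisons that share the withdrawal rats, and 1 of 8 was above 0 in ethanol vs. control (median −0.05). Of all tested genes 50.1%, 49.9%, and 50.1% were above 0 in these comparisons. Only Cct6a passed the threshold (withdrawal vs. ethanol, 163 ± 13.7 CPM in ethanol against 186 ± 10.6 CPM, a log2 difference of 0.19 with limma-voom SE 0.051 and q = 0.0879). This call was lost without ethanol rat 2, ethanol rat 3, or withdrawal rat 6, and in a fit of only these 2 groups, where no gene was called. The other lists had no DE gene except for Hspa1a. Of the 8 J-domain proteins Dnaja4 had the smallest p, with a log2 fold change of −0.17 between withdrawal and ethanol (q = 0.133 by limma-voom). Among 5 tested small heat shock proteins it was Cryab, with 0.44 between ethanol and control (q = 0.282 by limma-voom), among 5 tested BAG and other exchange factors Bag4, with −0.12 between ethanol and control (q = 0.339 by limma-voom), and among 3 heat shock factors and regulators Hsbp1, with −0.13 between withdrawal and ethanol (q = 0.154 by limma-voom).

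Hspa1a was the gene of the other 7 cytosolic HSP70 relatives that passed the threshold, and it was lower in withdrawal than in ethanol rats. The call was lost without ethanol rat 2, ethanol rat 3, or withdrawal rat 6, and in a fit of only these 2 groups, where no gene was called. Control rats ranged from 0.92 to 1.64 CPM (median 1.10), ethanol rats from 0.62 to 3.23 CPM (median 1.47), and withdrawal rats from 0.61 to 1.42 CPM (median 0.93). Ethanol rat 5 had the highest level, with 114 counts, and ethanol rat 1 lay near the bottom of the range. By limma-voom the log2 fold change was −1.004 (SE 0.26, q = 0.0729), while the plain difference in mean log2 CPM, without surrogate variables, was −0.59, with an exact permutation p of 0.113, and the groups overlapped. Against control rats, Hspa1a differed by 0.64 in ethanol (limma-voom q = 0.258) and by −0.36 in withdrawal rats (q = 0.427 by limma-voom). The plain differences were 0.26 in ethanol (exact permutation p = 0.47) and −0.32 in withdrawal rats (exact permutation p = 0.165).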

How the data were processed

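Gene levels were measured by RNA-seq of the dorsal hippocampus (TruSeq stranded libraries, paired-end reads). Per the study's methods, the authors aligned reads with STAR 2.5.2a to Rnor_6.0 and counted them with featureCounts 1.5.0. Counting was over exons, by strand, without chimeric or multi-mapping pairs, settings that the paper's methods do not give. The deposited values are raw read counts per gene for 38445 gene identifiers, of which 29322 were given a symbol by the RefSeq table of GRCr8. Libraries held 30873228 to 42679748 counts, and floors cover counting error only.

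From these counts, CPM was computed with edgeR 4.0.16 (trimmed mean of M-values), the 17853 genes with over 0.5 CPM in 1 rat or more were retained, sva 3.50.0 gave 3 surrogate variables from the log2 CPM (prior count 2), and the 3 groups were fitted in 1 model with limma 3.58.1 (voom, empirical Bayes) in R 4.3.3, with Benjamini-Hochberg q < 0.1. Exact permutation tests over rats (scipy 1.17.1) are unadjusted. No pair of libraries agreed within sampling noise (lowest chi-square per degree of freedom 5.44 over 45 pairs within groups). Alternatives were edgeR quasi-likelihood, DESeq2 1.42.0, other scaling, filters, surrogate variables, sample weights, a replicate block, and fits without single rats. The limma-voom, edgeR quasi-likelihood, and DESeq2 fits with 3 surrogate variables were tested on simulated counts for withdrawal vs. control. DESeq2 made more false calls there than the others, and the limit set for it was loosened after that was seen. The simulated counts held no shared hidden variation, and the other alternatives were not tested in this way.

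The 10 genes and the chaperone and marker lists were chosen with earlier results of these data known. All 10 are named. Of the lists, genes at q < 0.1 and, for a list with none, the gene with the smallest p are named, together with the 3 genes most correlated with Hspa8 and with Hspb1 (Hspa1b has no values, and Bag3 was added after its values were seen). Promoters of Hsf1, Hspa1b, and Hsp90aa1 were not analysed here.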

Additional observations from a re-analysis of the deposited data

Results flagged for a closer look

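Over 30 sets of 6 rats (the 9 tested heat shock genes and Hspa1a in 3 groups), 3 held a rat farther from the others than Dixon's 95% limit allows, where chance gives about 1 in 20. Bag3 was at 66.4 CPM in withdrawal rat 1, and the next withdrawal rat was at 18.5 CPM. Hspb1 was at 5.48 CPM in ethanol rat 3, below the other ethanol rats, the nearest of which was at 7.82 CPM. Hspa1a was at 3.23 CPM in ethanol rat 5, and the next ethanol rat was at 1.58 CPM. The high Hspb1 of withdrawal rats 1 and 6 passed no such limit, since the rule looks at 1 rat at a time.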

How the results depend on the processing

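The number of heat shock genes at q < 0.1 between withdrawal and control (1) fell to 0 with no surrogate variables, with edgeR quasi-likelihood and no surrogate variables, and without withdrawal rats 1 and 6 (a choice made after seeing the data). Calls over all genes were 41, 33, and 1 in these 3 settings. With 3 surrogate variables and all rats, limma-voom called 965 genes and edgeR quasi-likelihood 1030. The log2 fold change of Hspb1 by edgeR quasi-likelihood was 1.17 with 3 surrogate variables (q = 0.0276) and 1.17 with none (q = 0.124). When single rats were left out, the number was 0 to 2, with 23 to 1948 calls over all genes. Between withdrawal and ethanol (1) it was 0 in the same 3 settings (560, 682, and 1 calls over all genes, against 485), with 2 surrogate variables (261), no low-value filter (159), the replicate block (61), only the 2 groups (0), or q < 0.05 (111). It was 2 with DESeq2 (1176 calls over all genes, with Hspb1 added, 0.88, q = 0.0914). When single rats were left out it was 0 to 1, with 0 to 1773 calls over all genes. Between ethanol and control it was 0 in every setting run. Calls over all genes there ran from 0 (without control rat 4) to 473 (DESeq2), against 88 in the main fit. With so few calls, 0 of 9 says little about these genes. The exact permutation tests under 0.05 numbered 3, 1 without withdrawal rats 1 and 6, and 1 to 7 without single rats, with 7 when withdrawal rat 5 was left out. Without withdrawal rat 5 these were 4 of 9 in withdrawal vs. control and 2 of 9 in withdrawal vs. ethanol, where 14.2% and 14.9% of all tested genes passed, and without withdrawal rats 1 and 6 9.12% and 11.1% did. Hspa4 passed between withdrawal and control without withdrawal rat 2 (0.15, q = 0.0794 by limma-voom), where calls over all genes rose from 965 to 1948. The deviations of same-numbered rats of different groups had correlations of −0.32 to 0.38 over 18 pairs, with 4 above 0.1. These values alone cannot tell whether the numbers pair the rats. With the replicate block Hspb1 in withdrawal vs. control was 1.17 (q = 0.0335 by limma-voom).

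Of 864 values of single genes under alternatives, 33 changed sign, none of them called in either fit, in 11 of 27 combinations of gene and comparison. With no surrogate variables these were Hsf1 (−0.0028), Hsp90ab1 (−0.031), and Dnajb1 (−0.014) in ethanol vs. control, and Hsf1 (0.045) and Hspa8 (−6.2e-05) in withdrawal vs. ethanol. With edgeR quasi-likelihood and no surrogate variables they were Hsp90ab1 (−0.031) and Dnajb1 (−0.013) in ethanol vs. control, and Hsf1 (0.043) and Hspa8 (−0.00090) in withdrawal vs. ethanol. Hsp90ab1 in ethanol vs. control was also −0.0024 (2 surrogate variables), −0.00074 (DESeq2), −0.014 (upper quartile), and −0.0029 (replicate block). Without withdrawal rats 1 and 6, values in withdrawal vs. ethanol were 0.012 (Hsf1), −0.0065 (Dnajb1), and −0.066 (Bag3). With single rats left out, the ranges were −0.011 to 0.027 (Hsp90ab1, ethanol vs. control), −0.064 to 0.033 (Hsf1) and −0.0065 to 0.52 (Bag3) in withdrawal vs. ethanol, and −0.054 to 0.0099 (Hspa8), −0.089 to 0.027 (Hsp90aa1), −0.033 to 0.0046 (Hsp90ab1), and −0.011 to 0.16 (Hsph1) in withdrawal vs. control. The cause of these changes was not tested.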
